A study of Mus musculus with 9 samples.

Results

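The 10 genes followed here belong to the immediate early response and were measured in EP ZFTA-RELA ependymomas and in control mouse brain: Fos, Fosb, Jun, Junb, Jund, Ier2, Egr1, Atf3, Nr4a1 and Dusp1. They were taken by symbol from the 32285 mouse genes of the feature lists, each matched 1 row, and all 10 had UMIs in both groups. The set was selected on the measured values of Fos and Ier2, which were higher in microglia of most but not all tumors, so that contrast is described here and not tested. Single-cell RNA-seq with 10x 5′ chemistry covered 5 tumors of NestinCreERT2;Fus1 mice and 4 brains of NestinCreERT2;TdT mice, all 6 to 8 weeks old. Both genotypes carry the Nestin-driven inducible Cre, the first a conditional ZFTA-RELA fusion allele recombined in radial glia and the second a reporter. Tissue was cut and enzymatically dissociated, cleaned on Percoll and sorted for live cells without Ter119, a red cell marker.

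Immediate early genes are transcribed within minutes of a stimulus, without new protein synthesis, when kinase cascades activate factors already bound at their promoters. Fos, Fosb, Jun, Junb and Jund encode subunits of the AP-1 dimer, Atf3 a related stress-induced factor, Egr1 and Nr4a1 a zinc-finger factor and an orphan nuclear receptor, Ier2 a short-lived nuclear protein, and Dusp1 a phosphatase that switches off mitogen-activated protein kinases. In brain the genes are known as markers of neuronal activity, and in glia and endothelium they respond to injury, cytokines and handling of the tissue.

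RefSeq promoter sequences of build GRCm38.p6 were matched for 8 of the 10 genes (Atf3, Dusp1, Fos, Fosb, Jun, Junb, Jund and Nr4a1). No entry was matched for Ier2 and Egr1. The 250 bases before the start are shown for 4 genes whose tumor values moved in different ways across cell types, 5′ to 3′ on the strand of the gene, with capitals marking TGACG, the core of the cyclic AMP response element, in either orientation, the full palindrome TGACGTCA that contains it, GCGNGGGCG, a form of the Egr1 element, and TATAAA. Fos lies at chr12:85473640-85473889 on the plus strand, Junb at chr8:84978749-84978998 on the minus strand, Dusp1 at chr17:26508473-26508722 on the minus strand and Nr4a1 at chr15:101266596-101266845 on the plus strand.
Fos: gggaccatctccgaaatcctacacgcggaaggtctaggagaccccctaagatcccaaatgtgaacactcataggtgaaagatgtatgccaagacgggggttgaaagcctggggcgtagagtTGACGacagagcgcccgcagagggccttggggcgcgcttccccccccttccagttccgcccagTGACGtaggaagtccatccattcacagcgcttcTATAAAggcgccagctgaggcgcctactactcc
Junb: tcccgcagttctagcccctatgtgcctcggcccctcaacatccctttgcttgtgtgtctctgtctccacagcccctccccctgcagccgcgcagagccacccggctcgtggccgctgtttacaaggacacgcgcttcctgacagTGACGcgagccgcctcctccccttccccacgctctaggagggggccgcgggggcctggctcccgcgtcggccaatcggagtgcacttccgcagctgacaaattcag
Dusp1: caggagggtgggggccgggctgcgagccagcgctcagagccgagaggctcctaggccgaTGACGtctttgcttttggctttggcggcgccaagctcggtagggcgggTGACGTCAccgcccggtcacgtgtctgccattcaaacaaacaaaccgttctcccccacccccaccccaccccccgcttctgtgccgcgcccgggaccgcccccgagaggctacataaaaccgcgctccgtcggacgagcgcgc
Nr4a1: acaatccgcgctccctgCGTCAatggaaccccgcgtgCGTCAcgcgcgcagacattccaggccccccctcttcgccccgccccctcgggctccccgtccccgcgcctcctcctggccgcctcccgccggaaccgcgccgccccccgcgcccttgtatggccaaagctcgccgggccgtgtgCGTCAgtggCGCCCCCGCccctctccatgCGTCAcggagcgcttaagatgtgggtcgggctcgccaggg
At least 1 TGACG on either strand was found in 6 of the 8 matched genes and in 19.8% of all 27025 genes with a promoter of the same length. Nr4a1 held 4 copies, Dusp1 3, of which 2 are the overlapping ends of its palindrome, and Fos 2. The whole palindrome was found in 1 of the 8, Dusp1, and in 1.77% of all genes, and GCGNGGGCG in 2 of the 8, Fosb and Nr4a1, against 5.33%. TATAAA was found in 1 of the 8, Fos, against 14.3%, and neither the AP-1 letters TGANTCA (7.82% of all genes) nor the CArG box (1.62%) was found in these windows. Bases further upstream, and the promoters of Ier2 and Egr1, were not searched, so sites there would not be seen.

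After filtering, 20397 cells of controls and 15888 cells of tumors remained, with 13731800 to 21695609 UMIs per control library and 5885675 to 37576079 per tumor library. Cells were assigned to types by marker gates, which gave 683 control and 1509 tumor microglia and 119 control and 726 tumor endothelial cells. All 12 microglia markers were detected in the microglia gate of both groups, and all 10 endothelial markers in the endothelial gate. Free RNA was measured in the 3000 barcodes with fewest UMIs. These held a median of 559 to 1338 UMIs, and no library had a barcode under 468 UMIs, so damaged cells among them cannot be told apart. In tumor 3 all 9001 barcodes entered as candidate cells, its free RNA barcodes included. The share of free RNA differed between the groups. Neuron markers in control microglia stood at 0.63 to 0.69 of their level in free RNA, against 0.087 to 0.29 in tumor microglia. In endothelial cells they stood at 0.34 to 0.48 against 0.16 to 0.25. The part of free RNA in the group differences was measured by repeating the fits after subtraction of that profile, where this could be done. Barcodes shared by 2 or more libraries were 112 of 31174 (0.359%). Levels are CPM, the UMIs of a gene as a share of all UMIs in the gate, scaled to the usual counts-per-million unit, and fewer expressing cells and less RNA per cell cannot be told apart in a sum over cells.

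In microglia, the brain's resident macrophages, Fos and Fosb were higher in tumors 1 to 4 than in every control and lower in tumor 5 than in every control, Junb was higher in all 5 tumors, and Jun overlapped between the groups. Fos was at 33.1, 27.3, 34.4 and 50.5 CPM in the 4 control brains and at 399, 340, 1288, 533 and 20.2 CPM in tumors 1 to 5. Tumors 1 to 4 were above every control, and tumor 5 was below all 4. The share of free RNA was larger in control microglia, and its part in the low values of tumor 5 was not tested. Fosb followed the same order of groups, with 7.81 to 26.3 CPM in controls, 40.5 to 116 CPM in tumors 1 to 4 and 3.61 CPM in tumor 5. Jun was at 143, 142, 531 and 313 CPM in controls and at 668, 416, 2132, 428 and 209 CPM in tumors, so 2 tumors were above the highest control, and tumors 2, 4 and 5 were below control replicate 3. Junb, in contrast, was narrow in both groups, with 140, 137, 150 and 151 CPM in controls and 586, 542, 593, 670 and 441 CPM in tumors. Every tumor, tumor 5 included, was above every control for Junb. Jund was at 207 to 320 CPM in controls and at 329, 378, 1064, 678 and 264 CPM in tumors, with tumor 5 inside the control range and tumor 1 close to its upper end.

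The members outside the AP-1 family differed in whether tumor 5 took part. Ier2 was at 7.64, 15.6, 14.2 and 13.4 CPM in control microglia and at 235, 171, 144, 205 and 90.3 CPM in tumors. Atf3 was at 7.42 to 14.2 CPM in controls and at 72.0, 213, 1143, 642 and 40.4 CPM in tumors. The groups did not overlap for either gene. Dusp1 was at 43.3, 27.3, 14.2 and 22.3 CPM in controls and at 129, 132, 308, 185 and 38.3 CPM in tumors, tumor 5 lying below control replicate 1. Egr1 was at 158, 118, 124 and 178 CPM in controls and at 210, 165, 425, 155 and 54.2 CPM in tumors, and Nr4a1 at 14.2 to 30.6 CPM against 14.7, 12.7, 144, 43.5 and 1.44 CPM. Both overlapped between the groups, and control Egr1 was close to its level of 105 to 154 CPM in control free RNA. Groups did not overlap for 3 of the 10 members (Junb, Ier2 and Atf3), which is the contrast the choice used; by the same measure 10.4% of 9264 genes stood higher in every tumor. Tumor 3 had the highest value for 8 of the 10 members and tumor 5 the lowest for all 10.

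**Figure D1:**
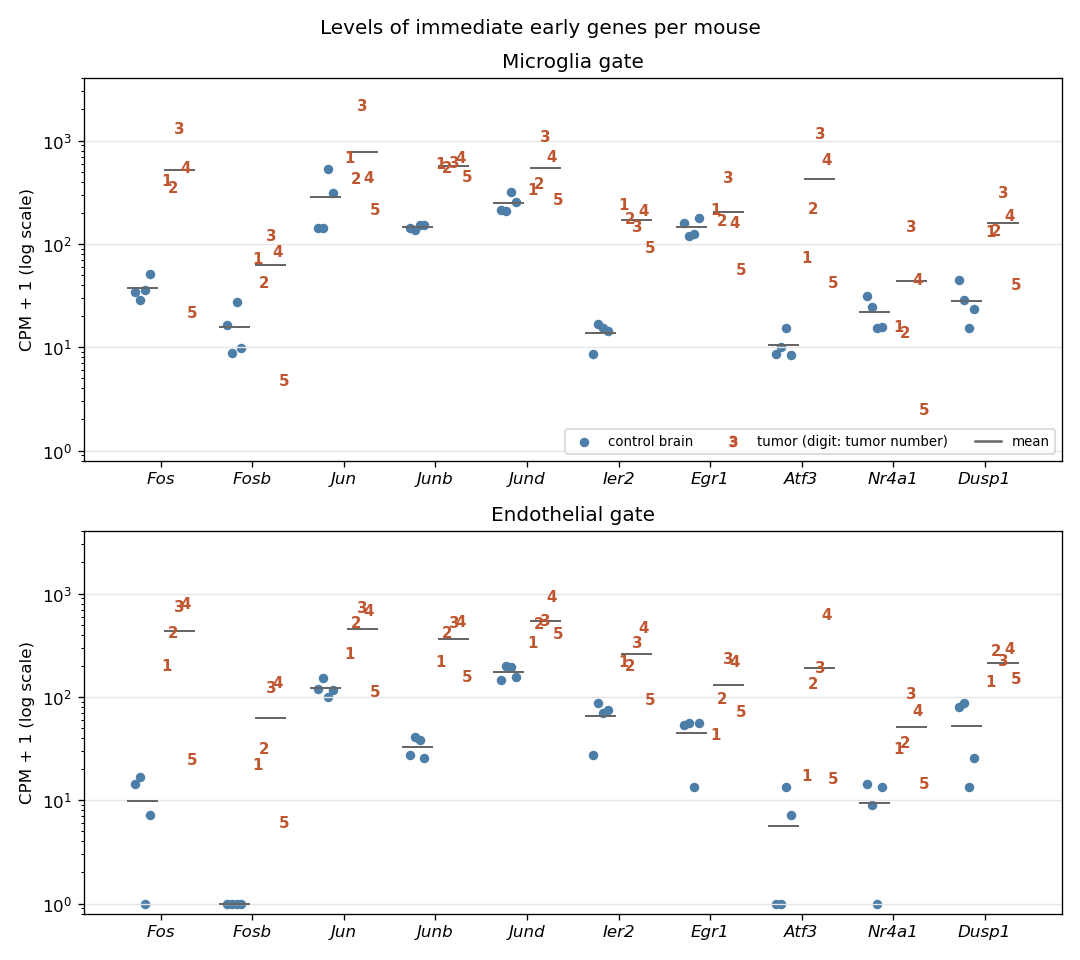
CPM plus 1 on a log axis for the 10 genes in the microglia gate (top) and the endothelial gate (bottom). Dots are the 4 control brains, digits are tumors 1 to 5 by number, and grey lines are group means; in microglia tumor 5 has the lowest tumor value for all 10 genes.

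Fitted over all genes with edgeR, the log2 fold changes of tumor over control in microglia were 4.18 for Fos, 4.08 for Ier2, 5.84 for Atf3, 2.98 for Dusp1, 2.53 for Fosb, 2.38 for Junb, 1.77 for Jun, 1.51 for Jund, 1.39 for Nr4a1 and 0.84 for Egr1. After subtraction of free RNA these were 3.66 for Fos, 4.15 for Ier2, 4.81 for Atf3, 2.03 for Junb and 0.94 for Jun, and all 10 remained above 0. Without tumor 3 the value for Jun was 1.14 and for Fos 3.73, and without tumor 5 the value for Fos was 4.50. Macrophage markers moved with the group as well: all 10 were detected in both, and their sum in the microglia gate was 144.5 to 297.7 CPM in controls and 911.9 to 8098 CPM in tumors. Their part in the result was not tested.

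Cells were also counted after thinning each to 1000 UMIs, which removes differences in depth. Fos was then detected in 3.05%, 2.12%, 2.26% and 3.66% of control microglia and in 16.3%, 18.5%, 14.8%, 26.8% and 1.61% of microglia of tumors 1 to 5. The exact 95% interval of tumor 5, 0.53% to 3.72%, held all 4 control shares. At full depth the means were 8.38% in controls and 28.1% in tumors. The thinned share in the control neuron gate, whose neuron markers did not exceed free RNA, was 1.40%, 2.6%, 0.40% and 0.80% in control replicates 1 to 4, at a median of 2068 to 4242 UMIs per cell against 1931 to 3952 in control microglia. The share in microglia was above it in replicates 1, 3 and 4 and below it in replicate 2. Tumor 3 had the highest Fos level, but its share (exact 95% interval 10.5% to 20.0%) was no higher than that of tumors 1 and 2 and below that of tumor 4 (21.6% to 32.6%). At full depth, 93.9% of the Fos UMIs of tumor 3 were in the 10% of microglia with most of them. The shares were 76.8%, 67.8% and 43.1% in tumors 1, 2 and 4. These shares were not thinned, and median UMIs per cell were 2776 in tumor 3 and 2415, 4058 and 6090 in tumors 1, 2 and 4. Egr1 alone among the members had a lower mean share of microglia with a UMI in tumors. Its means were 33.8% in controls and 23.2% in tumors at full depth, and 13.4% and 10.5% after thinning. At least 3 of the 10 members were detected together in 2.54%, 2.65%, 8.27% and 8.54% of thinned control microglia and in 17.1%, 23.2%, 19.1%, 34.3% and 7.1% of those of tumors 1 to 5. Tumor 5 lay within the control range and the other 4 tumors above it. Endothelial cells had 0 to 3.45% in controls and 8.78%, 26.7%, 13.1%, 46.3% and 3.91% in tumors, so in both cell types tumor 4 had the highest share. In the neuron gate, with at most 500 cells drawn per mouse, the shares were 0.20% to 1.80% in controls and 1.80% to 6.23% in the 4 tumors with enough cells.

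**Figure D2:**
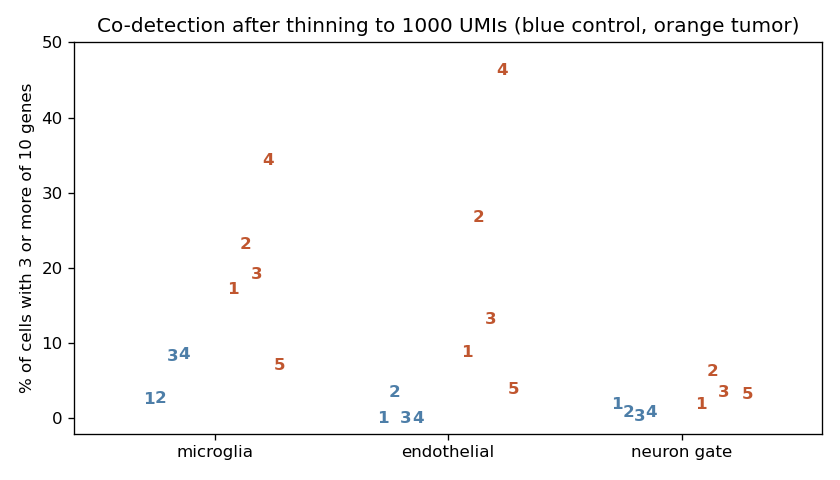
Share of cells (%) in which at least 3 of the 10 genes had a UMI after thinning to 1000 UMIs, by cell type, with each digit 1 mouse (blue control, orange tumor). Tumors 1 to 4 lie above all controls in microglia (17.1% to 34.3%), and tumor 5 lies among the controls at 7.1%.

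Other early response genes did not all follow Fos in tumor 5. The genes in this paragraph are members of lists taken with the set, and were picked after their values were seen. Nfkbia, an inhibitor of NF-kB that NF-kB itself induces, was at 22.9 to 52.0 CPM in control microglia and at 187, 357, 201, 479 and 368 CPM in tumors 1 to 5. Ier3 was at 6.51 to 14.2 CPM in controls and at 92.5, 263, 111, 154 and 257 CPM in tumors, and Socs3, an inhibitor of cytokine receptor signaling, at 2.6 to 18.2 CPM and at 96.9, 279, 133, 108 and 152 CPM. For these 3 genes tumor 5 stood well above every control, although its Fos and Nr4a1 were below every control in CPM. Nr4a1 in tumor 5 rested on 2 of 310 cells with a UMI. Neuron markers stood at 0.21 of free RNA in tumor 5 microglia, against 0.63 to 0.69 in controls. The part of free RNA in the low Fos and Nr4a1 values was not tested. Klf2, a shear-responsive and early response factor, was at 7.64 to 12.2 CPM in controls and at 214, 233, 775, 642 and 73.7 CPM in tumors. Tumor 3 stood apart for a pair of stress chaperones. Hspa1a was at 5.09 to 11.9 CPM in controls and at 14.7, 58.9, 2429.5, 42.2 and 0.722 CPM in tumors, and Hspa1b at 11.7 to 20.4 CPM and at 7.34, 32.5, 2647, 14.5 and 0 CPM. The 2 genes are near-identical copies, and the split of reads between them is uncertain. The part of this heat shock signal in the high member values of tumor 3 was not tested.

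**Figure D3:**
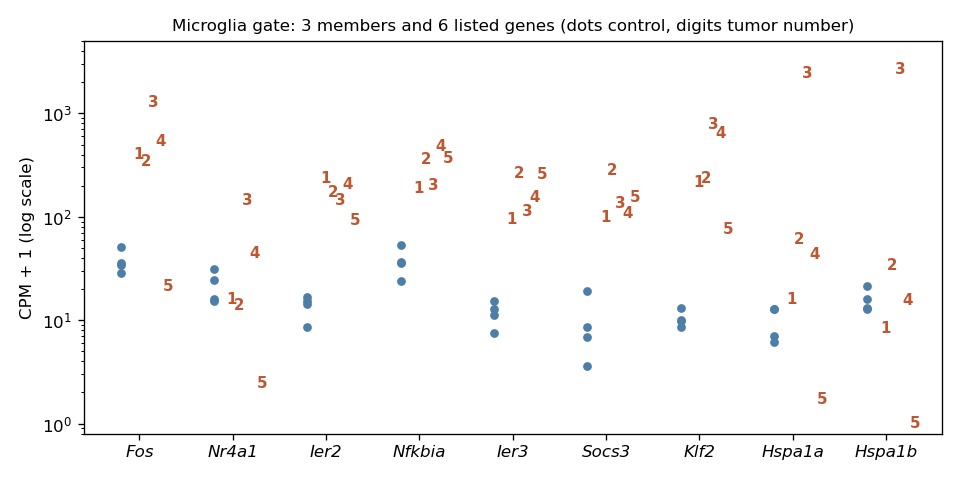
CPM plus 1 (log axis) in the microglia gate for 3 members and 6 genes of the other lists. Dots are control brains and digits tumors by number; tumor 3 stands alone at 2429.5 CPM of Hspa1a, and tumor 5 is low for Fos and Nr4a1 but not for Nfkbia, Ier3 and Socs3.

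The tests by gate below are in cell types that the choice of genes did not use. In tumors only, astrocytes, oligodendrocytes and neuron-gated cells with a UMI of the sequences added to the reference were moved to a gate apart. Endothelial cells were not moved, and the part of this step in the results was not tested. In endothelial cells, which line the vessels, Junb, Jund, Jun and Ier2 rose in tumors by edgeR's quasi-likelihood test with Benjamini-Hochberg adjustment over all genes. Dusp1, Egr1, Fos and Nr4a1 were also called higher but are given as values only, since they passed the filter on low counts with the help of their tumor levels. Of the 10 members 8 passed that filter and 8 were called higher, and over all 7169 genes 11.5% were called higher and 12.4% lower. The count of 8 is partly set by the filter, which asks for 22.8 CPM in at least 4 mice. Jun, Junb, Jund and Ier2 met this in all 4 controls, Egr1 and Dusp1 in 3, and Fos and Nr4a1, with 4 control UMIs each, in 0. Nothing is read from the count. Fosb and Atf3 did not pass. Junb had the smallest adjusted p of the 8. It was at 26.5, 39.6, 37.5 and 24.6 CPM in the 4 controls and at 212, 412, 518, 520 and 153 CPM in the 5 tumors, every tumor above every control. Its log2 fold change was 3.57 (SE 0.47, adjusted p = 0.00082, edgeR). Fos was at 13.2, 15.8, 0 and 6.15 CPM in controls and at 196, 410, 740, 784 and 23.1 CPM in tumors, with a log2 fold change of 5.84 (SE 1.10, adjusted p = 0.0033, edgeR). The controls held 4 Fos UMIs in all, every control value was below its library's limit of 3 UMIs (18.5 to 39.7 CPM), and tumor 5 lay within the range of those limits. The fitted fold and its p depend on these few UMIs and are not read as a tested rise, and Fos was tested in 5 of 9 fits without 1 mouse.

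Jund rose by a log2 fold change of 1.72 (SE 0.33, adjusted p = 0.0034, edgeR), from 146 to 198 CPM in controls to 326, 504, 536, 922 and 399 CPM in tumors. Ier2 was at 26.5 to 87.1 CPM in controls and at 212, 195, 327, 458 and 92.2 CPM in tumors (log2 fold change 2.02, SE 0.46, adjusted p = 0.0080, edgeR). Dusp1 was at 79.4, 87.1, 12.5 and 24.6 CPM and at 137, 274, 218, 285 and 145 CPM (2.29, SE 0.46, adjusted p = 0.0045, edgeR). No tumor overlapped the controls for these 3 genes, as for Junb. The share of all genes without overlap was not counted in this gate, so nothing is read from the lack of overlap. The p of Dusp1, which met the filter in 3 of 4 controls, is not read as a tested rise. Jun rose by 1.99 (SE 0.48, adjusted p = 0.011, edgeR), but tumor 5 at 110 CPM lay inside the control range of 99.9 to 151 CPM.

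Egr1 was at 52.9, 55.5, 12.5 and 55.4 CPM in controls and at 41.1, 92.8, 231, 212 and 69.2 CPM in tumors (log2 fold change 1.69, SE 0.58, adjusted p = 0.047, edgeR), and the call, also not read, was lost in 7 of 9 fits without 1 mouse. Nr4a1 was at 0 to 13.2 CPM and at 29.7, 34.1, 104, 71.1 and 13.2 CPM (2.77, SE 0.84, adjusted p = 0.029, edgeR), which is likewise not read, and the call was lost in all 4 fits in which it was tested without 1 mouse. Without tumor 2, tumor 3 or tumor 4, 5 of the 6 members then tested were called. After subtraction of free RNA the controls kept 50 of 63 Jun UMIs, 52 of 92 for Jund, 34 of 36 for Ier2 and 17 of 23 for Dusp1, and these 4 genes were called with log2 fold changes of 1.80, 2.00, 1.65 and 2.24. The other 4 kept 0 (Egr1), 1 (Fos), 1 (Nr4a1) and 5 (Junb) control UMIs, too few for a fold, and their calls in that fit are not read. With limma voom 3 of the 8 were called, Jund, Junb and Dusp1. Markers of mural cells, the contractile cells of the vessel wall, were lower in tumors in this gate. Between 9 and 10 of the 10 were detected, with Acta2 at 0 in controls, and their sum was 2319 to 3421 CPM in controls and 29.8 to 1998 CPM in tumors, and other lists were higher there. Microglia markers summed to 118.6 to 301 CPM in controls (10 of 12 detected, Tmem119 and P2ry13 at 0) and to 200.8 to 827.8 CPM in tumors (12 of 12). Macrophage markers summed to 31.7 to 143.6 CPM (8 of 10, Ms4a7 and Cxcl13 at 0) and to 28.3 to 682.7 CPM (9 of 10, Ccr2 at 0), and cycling markers to 0 to 25.0 CPM (6 of 7, Cdk1 at 0) and to 16.4 to 638.4 CPM (7 of 7). All 3 ranges overlapped between the groups. The part of these lists in the result was not tested.

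Fosb was at 0 in all 4 control endothelial samples and at 20.5, 30.0, 119, 135 and 4.94 CPM in tumors, and Atf3 at 0, 0, 12.5 and 6.15 CPM against 16, 131, 188, 607 and 14.8 CPM. The limit that 3 UMIs set in these controls was 18.5 to 39.7 CPM, and Fosb in tumors 1, 2 and 5 and Atf3 in tumors 1 and 5 lay below its upper end. A difference of these tumors from the controls was not detectable at this depth.

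In oligodendrocytes, the myelinating cells, Jun and Jund rose, and both calls were lost after subtraction of free RNA. With Fos, 3 of the 5 members tested were called higher, but Fos passed the filter through the tumors and is given as values. No member fell (0 of 5), and over all 3518 genes 11.5% were called higher and 15% lower. Fos was at 22.5, 11.7, 8.76 and 20.9 CPM in the 4 controls and at 90.3, 363, 358, 230 and 0 CPM in the 5 tumors (log2 fold change 3.81, SE 0.84, adjusted p = 0.0057, edgeR). The controls held 9 Fos UMIs in all, 3 UMIs were worth 15.6 to 33.8 CPM in controls and up to 39.2 CPM in tumors, and Fos was tested in 5 of 9 fits without 1 mouse. The 0 of tumor 5 therefore allows a level like that of the controls. Jun was at 64.5 to 96.3 CPM against 181, 348, 273, 192 and 118 CPM (1.62, SE 0.35, adjusted p = 0.0050, edgeR). Jund was at 270, 299, 403 and 396 CPM and at 891, 1047, 984, 539 and 1137 CPM (1.49, SE 0.29, adjusted p = 0.0028, edgeR), and here tumor 5 was the highest of the 5. Junb and Egr1 did not pass, with 1.11 (SE 0.66) and 0.22 (SE 0.83) on the log2 scale. Neuron markers were at 0.53 to 0.67 of free RNA in control oligodendrocytes and at 0.041 to 0.19 in tumors, and after subtraction of free RNA 0 of the 2 members still tested were called by edgeR. Jun then had an adjusted p of 0.055 and Jund of 0.12, with log2 fold changes of 1.2 and 0.80. Markers of oligodendrocyte precursors, all 10 detected in both groups, summed to 357.4 to 461.6 CPM in the control gate and to 664.2 to 2456 CPM in the tumor gate, without overlap, and their part in the result was not tested.

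In astrocytes, the glia that contact vessels and synapses, 3 members passed the filter, in 4 controls and 4 tumors, since tumor 4 had 2 such cells. Jund rose, from 141, 133, 134 and 104 CPM in controls to 171, 316, 276 and 363 CPM in tumors 1, 2, 3 and 5 (log2 fold change 1.24, SE 0.26, adjusted p = 0.00095, edgeR), against 16.5% of 3810 genes called higher. Egr1 was called lower by 1.41 on the log2 scale (SE 0.46, adjusted p = 0.023, edgeR), against 15.3% of genes called lower. It went from 174, 47.8, 58.0 and 108 CPM to 16.8, 71.4, 52.6 and 22.9 CPM, and the ranges overlapped. Egr1 met the 49.2 CPM of the filter in 3 of 4 controls and 2 tumors, so this is not read as a tested fall. Egr1 was not called in 4 of 8 fits without 1 mouse, nor with a block for the replicate number. After subtraction of free RNA it no longer passed the filter on low counts. Jun did not pass the test (0.51, SE 0.41). Of the members that were not tested, Fos was at 16.5, 10.6, 4.46 and 4.15 CPM in controls and at 8.41, 173, 26.3 and 36.7 CPM in tumors, and tumor 2 alone carried the high value. Neuron markers stood at 0.56 to 0.70 of free RNA in control astrocytes and at 0.30 to 0.42 in tumor astrocytes. Ependymal markers summed to 24.8 to 69.0 CPM in the control gate (8 of 8 detected) and to 315.6 to 476.5 CPM in the tumor gate (7 of 8), and their part in the result was not tested.

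In the neuron gate all 10 members were tested, in 4 controls and 4 tumors. Tumor 4 kept 4 such cells after cells with a UMI of the added sequences were moved. Of the 10 members 5 were called higher and 0 lower, against 15.5% of 15364 genes called higher and 12.2% lower. Ier2 went from 8.71, 10.7, 4.10 and 10.0 CPM to 24.1, 70.0, 24.8 and 48.9 CPM (log2 fold change 2.37, SE 0.45, adjusted p = 0.0041, edgeR). Atf3 was at 0.0788 to 0.936 CPM in controls and at 1.82, 26.6, 16.5 and 7.96 CPM in tumors (4.56, SE 0.78, adjusted p = 0.0026, edgeR), but it reached the 1.41 CPM of the filter in 0 controls and is not read as a tested rise. Jun, Jund and Fos rose by 1.94, 1.66 and 2.15 on the log2 scale (adjusted p = 0.0023, 0.0080 and 0.017, edgeR). Fos was at 29.0, 25.5, 5.04 and 16.7 CPM in controls and at 35.5, 140, 86.2 and 64.9 CPM in tumors, so tumor 1 was close to control replicate 1, and the call was lost without control replicate 4 and without tumor 2. Junb, Dusp1, Nr4a1, Egr1 and Fosb did not pass, with log2 fold changes of 0.26, 0.01, -0.56, -0.50 and 0.97. The control cells of this gate, 80.9% to 86.6% of all kept control cells, had neuron markers at 0.74 to 0.79 of the free RNA level, so by this measure they did not exceed free RNA. Malat1, a nuclear RNA, did separate them from it, at 9.03%, 9.09%, 10.8% and 9.80% of UMIs in these cells against 0.870% to 1.22% in control free RNA. In tumors the marker ratio was 0.99 to 2.74, and Malat1 was at 3.60% to 5.92% against 0.838% to 1.07% in the free RNA of those 4 tumors. Markers of other cells were higher in the tumor gate as well: all 12 microglia markers were detected in both groups and summed to 185.2 to 213.2 CPM in controls and 215 to 2321 CPM in tumors, and all 10 macrophage markers to 33.2 to 50.4 CPM and 43.2 to 2785 CPM. Their part in the result was not tested.

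Over all kept cells 8 of 10 members were called higher and 0 lower, against 32.2% of 17588 genes called higher and 29.3% lower. The mix of cell types differs between the groups, and the sum holds the microglia whose Fos and Ier2 values chose the set. Microglia were 3.10% to 3.77% of control cells and 5.19% to 14.8% of tumor cells, so the count is a description. Egr1 and Nr4a1 did not pass, with log2 fold changes of 1.11 (SE 0.58) and 0.03 (SE 0.77). Atf3 and Fos had fold changes of 7.31 and 4.61 on that scale.

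**Figure D4:**
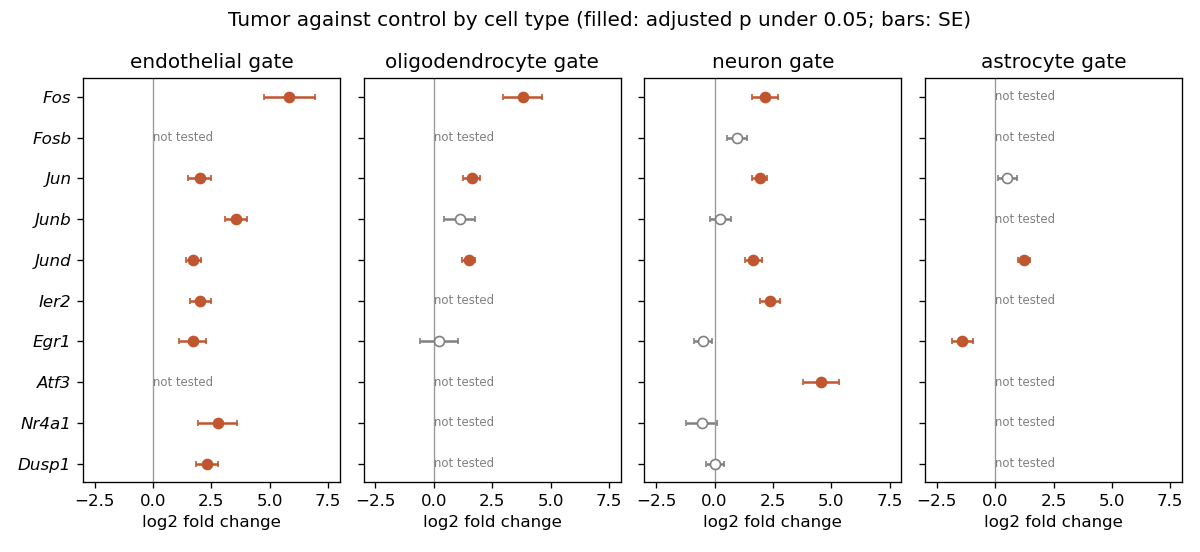
Log2 fold change of tumor over control with its SE for each member in the 4 tested cell types. Filled points have an adjusted p under 0.05 (edgeR); endothelial cells have 8 filled points, oligodendrocytes 3, the neuron gate 5 and astrocytes 2, of which Egr1 is below 0. The filled points of Dusp1, Egr1, Fos and Nr4a1 in endothelial cells, Fos in oligodendrocytes and Atf3 in the neuron gate passed the filter with the help of the tumors. Egr1 in astrocytes met the filter in 3 of 4 controls and 2 tumors, and none of these points is read as tested.

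Whether the tumor effect differed between cell types was tested with the mouse as a block, a test added after the values were seen. The effect was called larger in endothelial than in neuron-gated cells for 4 of 10 members, against 0.647% of 11290 genes, in 4 controls and 4 tumors: Junb by 3.39 (SE 0.57, adjusted p = 0.0049, edgeR), Dusp1 by 2.37 (SE 0.40, adjusted p = 0.0047), Nr4a1 by 3.56 (SE 0.64, adjusted p = 0.0065) and Egr1 by 2.05 (SE 0.42, adjusted p = 0.015) on the log2 scale. In this fit, which has its own filter, these 4 met it in 5 to 8 of the 8 control sums. The values of Nr4a1 and Egr1 are not read. Nr4a1 rests on 4 endothelial control UMIs, and Egr1 kept 0 of 22 after subtraction of free RNA. The count of 4 includes both and is not read. Junb kept 5 of 17 endothelial control UMIs and Dusp1 17 of 23. These fits were not repeated with free RNA subtracted, so the part of free RNA in the differences was not tested. Nor was the part of the added-sequence step tested, which moved tumor cells out of the other gates but not out of the endothelial gate. Junb and Dusp1 were called in all 8 fits without 1 mouse, and Egr1 in 5 of 8. Fosb and Fos missed the threshold with unadjusted p-values of 0.0019 and 0.0074 (edgeR), both with few endothelial control UMIs (0 and 4). Jun, Jund and Ier2, which rose in both gates, had differences of -0.07 (SE 0.55), 0.13 (SE 0.36) and -0.47 (SE 0.60). Against astrocytes, Junb and Egr1 passed (3.10, SE 0.70, adjusted p = 0.037 and 2.46, SE 0.52, adjusted p = 0.023, edgeR), 2 of 7 against 0.812% of 5297 genes, but without control 1, control 3, control 4 or tumor 1 the count was 0. Junb met the filter of that fit in 0 of 8 control sums, and Egr1 kept 0 endothelial control UMIs after subtraction. Neither is read as a tested difference. Dusp1 missed the threshold there with 2.38 (SE 0.64, adjusted p = 0.076, unadjusted p = 0.0016, edgeR). Against oligodendrocytes 0 of 8 passed with edgeR, against 0.944% of 5086 genes (2 without tumor 2 and 1 without tumor 4), although 2 members, Junb (2.54, SE 0.69) and Fos (1.93, SE 0.89), had unadjusted edgeR p-values of 0.0023 and 0.048. These 2 met the filter there in 1 and 0 of the 8 control sums.

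Cells with at least 1 UMI of the 4 sequences added to the reference, among them the fusion, were gated apart in the tumors and have no control counterpart. Free RNA held these sequences too, at 14.3, 97.2, 17.2, 251 and 91.3 CPM in tumors 1 to 5. Barcodes of free RNA alone, at the depth of the gated cells, would hold such a UMI in 4.64%, 43.6%, 10.1%, 80.2% and 32.8%. These are upper limits, since they take every UMI of a cell as free RNA. Among microglia, which should lack the sequences, 1.59%, 6.84%, 0.870%, 17.7% and 11.9% had such a UMI. The same formula gave 3.78%, 35.3%, 6.56%, 75.3% and 32.4% for microglia, above the observed share in every tumor. The gate therefore does not identify tumor cells one by one, and microglia with such a UMI were most frequent in tumor 4. Neuron markers in the gate stood at 0.22 to 1.0 of free RNA, highest in tumor 4. The gated cells outside the cycling gate, described here, numbered 73 to 2985 per tumor, and a further 1314 cycling cells with such a UMI (6 to 711 per tumor) were kept apart. Fos in the former was at 163, 327, 525, 903 and 79.3 CPM in tumors 1 to 5. Ier2 was at 130, 168, 182, 507 and 51.0 CPM, and Egr1 at 134, 295, 476, 495 and 86.5 CPM. Tumor 4 had the highest value for 8 of the 10 members and tumor 5 the lowest for 7, as tumor 5 was in microglia (all 10) and endothelial cells (7 of 10). With at least 2 such UMIs, an alternative added after the data were seen, Fos was at 419, 514, 997 and 65.2 CPM in tumors 2 to 5 (310, 23, 2124 and 245 cells; tumor 1 had 7 cells), and tumor 5 was again the lowest for 7 members. In oligodendrocyte precursors tumor 5 was the lowest for 0 members and tumor 3 for 8. Precursors were not among the gates tested, and with 3 controls of 25 to 37 cells their values are given without a test. The members summed to 295.3 to 478.3 CPM in these controls and to 666.6 to 2375 CPM in the 5 tumors. Neuron markers in precursors stood at 0.68 to 0.79 of free RNA in controls and at 0.20 to 0.28 in tumors. The part of free RNA in the precursor values was not tested. Fos was at 7.84, 0 and 10.3 CPM in control replicates 2 to 4 and at 216, 289, 19.8, 519 and 180 CPM in tumors, and Jund at 141, 118 and 82.6 CPM and at 409, 636, 264, 815 and 403 CPM.

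By mean over gates with at least 3 tumors, Fos in tumors was at 516 ± 471 CPM in microglia (SD, n = 5), 431 ± 333 in endothelial cells (n = 5), 399 ± 329 in cells with an added-sequence UMI outside the cycling gate (n = 5), 379 ± 299.6 in cycling cells with such a UMI (n = 3), 332 ± 284.5 in cells that passed no gate (n = 5), 258 ± 146 in other cycling cells (n = 4), 245 ± 182 in oligodendrocyte precursors (n = 5), 208 ± 161 in oligodendrocytes (n = 5), 168 ± 139 in mural cells (n = 4), 81.7 ± 44.2 in neuron-gated cells (n = 4) and 61.2 ± 75.7 in astrocytes (n = 4). By median endothelial cells (410 CPM) were above microglia (399 CPM), the microglia mean being raised by tumor 3 at 1288 CPM. Free RNA of the tumors held 62.9 ± 58.2 CPM (n = 5). Neuron-gated cells and astrocytes lack tumor 4, mural and other cycling cells lack tumor 1, and cycling cells with an added-sequence UMI hold tumors 2, 4 and 5, so their place among the other gates is not compared. Among the gates with all 5 tumors, the means of neighbours lay closer together than the SD between tumors. These gates come from the same tumors, and the difference between gates within a tumor was not tested. Jund in oligodendrocytes was above Jund in microglia of the same tumor in tumors 1, 2 and 5 (891, 1047 and 1137 against 329, 378 and 264 CPM) and below it in tumors 3 and 4 (984 and 539 against 1064 and 678 CPM).

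**Figure D5:**
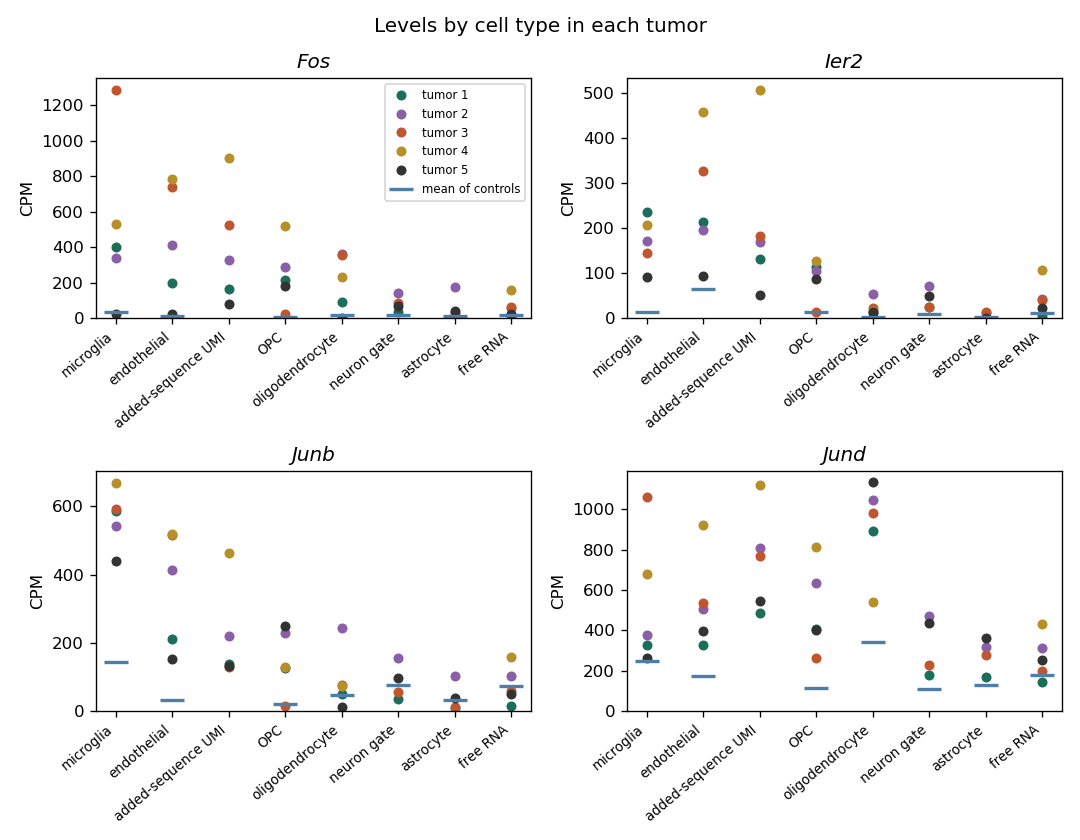
CPM of Fos, Ier2, Junb and Jund by cell type, with colored points for tumors 1 to 5 and a blue line for the mean of the controls. Fos of tumor 5 is near the axis in microglia (20.2 CPM) and endothelial cells (23.1 CPM), and Jund of tumor 5 is the highest of the tumors in oligodendrocytes (1137 CPM).

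Across 80 sums of mouse and cell type, with 7882 genes compared, the members Jun, Fosb, Ier2 and Junb were the 4 genes most like Fos (Pearson r of log2(CPM + 10) 0.83, 0.81, 0.81 and 0.80). Among the nearest genes outside the set were Rps3a1 (0.80), Rps4x (0.79), Manf (0.77) and Zfp36 (0.77), of which the ribosomal genes have near-identical pseudogenes. Egr1 ranked 175 and Nr4a1 891. The sums share libraries and depth, and the values are a description.

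The other lists are given by their counts, beside the shares over all genes printed above. In endothelial cells 13 of the 17 tested genes among 23 other early response genes were called higher and 0 lower, with a median log2 fold change of 1.63 against 0.02 over all genes. Of the 17, 9 reached the filter in all 4 controls and 6 of these rose (Btg2, Ier5, Mcl1, Nfkbia, Rhob and Sgk1), while the other 8 passed with the help of the tumors, so nothing is read from the count of 13 or the median. Ccn1, a matrix signaling protein, was at 0, 7.92, 6.24 and 0 CPM in controls and 82.1, 247, 304, 160 and 32.9 CPM in tumors (5.43, adjusted p = 0.0025, edgeR), and Zfp36, which destabilises cytokine mRNAs, had 3.75 (adjusted p = 0.0049, edgeR). Socs3 and Gadd45b had 5.04 and 3.25 (adjusted p = 0.0013 and 0.0092, edgeR). Ccn1, Zfp36 and Socs3 had at most 2 UMIs in any control, and Gadd45b had 9 in all and met the filter in 2 of 4 controls, so these folds and p-values are not read as tested rises. Of 16 further early transcription factors 8 were tested and 4 were called higher, Maff, Fosl2, Klf2 and Klf6. Maff, with no UMI in any control and 32.3 to 92.8 CPM in tumors, and Fosl2, with 5 control UMIs, passed the filter through the tumors, so the count is not read. Klf6 and Klf2 rose by 1.55 and 1.58 (adjusted p = 0.0059 and 0.028, edgeR).

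Upstream kinases and factors are the 14 genes whose products relay the signal to these promoters. Of 11 tested in endothelial cells 0 were called higher and 1 lower, Mapk8 (-1.38, adjusted p = 0.044, edgeR). Mapk8 met the filter in 3 controls and 1 tumor and is not read as a tested fall. Over all genes of this gate 11.5% were called higher and 12.4% lower, so the counts are near the background, and over all kept cells 6 of the 14 rose and 5 fell. Of 12 heat shock chaperones 11 were tested: Hspb1 rose (1.71, adjusted p = 0.0081, edgeR), Hsph1 and Hsp90aa1 fell, and Hspa1a, with 4 control UMIs, was called higher (4.77, adjusted p = 0.031, edgeR) but passed the filter through the tumors. Hspa1a in endothelial cells was at 68.4, 77.8, 717.5, 186 and 1.65 CPM in tumors 1 to 5, again highest in tumor 3 and lowest in tumor 5. In astrocytes 5 of 8 chaperones were called lower and 0 higher. The mean sum of this list went from 4690.5 CPM in controls to 2541.3 CPM in tumors in astrocytes, and from 6719.8 to 3310.5 CPM in free RNA. The part of free RNA in this fall was not tested. Of the 4 other early response genes tested in astrocytes, Rhob and Zfp36l1 rose (0.86 and 1.01, adjusted p = 0.014 for each, edgeR). Nfkbia and Btg1 were also called higher but passed the filter with the help of the tumors, Nfkbia with 14 control UMIs. In the neuron gate 12 of 22 other early response genes were called higher and 1 lower, and of the 19 that reached the filter in all 4 controls 9 rose. Socs3 had 5.25 (adjusted p = 0.0032, edgeR) but was at 2.73, 116, 14.2 and 66.0 CPM in tumors 1, 2, 3 and 5 against 1.09 to 2.21 CPM in controls, of which 1 reached the filter, so it is not read as a tested rise. Among the further early transcription factors 3 of 15 were called higher and 3 lower. Klf2 had 3.62 (adjusted p = 0.0013, edgeR), Maff, which reached the filter in 0 controls, 2.19 (adjusted p = 0.014, edgeR), Nr4a2 had -2.32 (adjusted p = 0.0015, edgeR), and Npas4, a factor induced by neuronal activity, fell by 2.52 on the log2 scale (adjusted p = 0.0042, edgeR), from 26.2 to 53.4 CPM in controls to 1.14 to 16.5 CPM in tumors. In oligodendrocytes Sgk1, a glucocorticoid-induced kinase, was at 41.7 to 87.9 CPM in controls and at 475 to 2104 CPM in tumors, tumor 5 being the highest (4.42, adjusted p = 0.00015, edgeR). It reached the filter in 2 of the 4 controls.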

How the data were processed

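Single cells of 4 control brains and 5 tumors were profiled by 10x 5′ RNA-seq. The authors deposited unnormalized counts of UMIs, a matrix of genes by barcodes for each library, made with Cell Ranger (6.1.2 in the matrix headers, version 7 in the submitters' notes, build mm10). The members and gene lists were chosen with earlier results of these data known. The 10000 largest barcodes of a library by UMIs entered. Those with 200 to 6000 genes were kept, the mixture component with the higher mitochondrial share was removed (2 components, scikit-learn 1.9.0), and the barcodes with the highest Scrublet scores were removed as doublets (scanpy 1.11.5, 0.8% per 1000 barcodes, 937 control and 490 tumor barcodes). In control replicate 4 the barcode list holds 80865 names for 80887 columns, and its cells were used by column.

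Types were gated with at least 4 markers of a list detected, 3 more than free RNA would give and 1 ahead of the next list. The neuron gate took cells with 4 neuron markers in which no other list exceeded free RNA by 2. In tumors, cells with at least 1 UMI of the added sequences were then moved to gates apart. This applied to the neuron, astrocyte, oligodendrocyte, precursor, neuroblast, ependymal and cycling gates and to ungated cells, not to other gates. The limits of the gates were set after marker counts were seen. Endothelial, astrocyte, oligodendrocyte and neuron gates, and all kept cells, were summed per mouse (at least 20 cells, 3 or more mice per group) and tested with edgeR 4.0.16 (R 4.3.3), TMM, filterByExpr and Benjamini-Hochberg adjustment over all genes at 0.05. The same fit was checked on simulated counts. Whether a gene reached the filter's CPM in the controls alone was counted after the results were seen. Alternatives were DESeq2 1.42.0, limma 3.58.1 voom, no filter, a replicate block, leaving out each mouse, a mitochondrial limit of 10%, 5000 barcodes, doublets kept, a stricter gate, at least 50 cells and free RNA subtracted. Of each other list at most 4 genes per comparison were named, from those with the largest changes past the threshold. Of the 5 genes outside the set most like Fos, 1 is not reported here. Nothing states that mice came from separate litters or batches. Shares and limits of 3 UMIs cover counting error only.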

Additional observations from a re-analysis of the deposited data

Results flagged for a closer look

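In 127 sets of 4 or 5 mice (member, cell type and group), 18 held a mouse set apart from the others by Dixon's criterion, and chance alone does this in about 1 in 20 sets. In tumors, replicate 2 stood apart in oligodendrocytes for Atf3 (195 CPM), Egr1 (339 CPM), Ier2 (53.6 CPM) and Junb (242 CPM). Tumor 4 stood apart in cells with a UMI of the sequences added to the reference for Atf3 (160 CPM), Ier2 (507 CPM) and Junb (463 CPM) and over all cells for Ier2 (425 CPM). Tumor 3 stood apart for Jun in microglia (2132 CPM, the others 209 to 668 CPM) and for Nr4a1 over all cells (109 CPM) and in the neuron gate (94.5 CPM). In controls, replicate 3 was low for Nr4a1 over all cells (14.3 CPM) and in the neuron gate (15.3 CPM), for Egr1 in endothelial cells (12.5 CPM) and for Dusp1 in oligodendrocytes (0 CPM). The values of control replicate 3 for Egr1 (2 UMIs) and Dusp1 (0 UMIs) rest on few UMIs. The remaining 3, all in astrocytes, also rest on 1 or 2 UMIs: Atf3 in control replicate 4 (8.29 CPM), Ier2 in control replicate 2 (5.31 CPM) and Fosb in tumor 1 (2.80 CPM).

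Tumor effects differed between gates by the test of the difference. The effect was called larger in endothelial than in neuron-gated cells for Junb (3.39), Nr4a1 (3.56), Dusp1 (2.37) and Egr1 (2.05), and larger than in astrocytes for Junb (3.10) and Egr1 (2.46), all as differences of log2 fold changes. Without 1 mouse, Junb, Dusp1 and Nr4a1 stayed called against the neuron gate, whose control cells had neuron markers below their level in free RNA, in 8 of 8 fits and Egr1 in 5 of 8, and against astrocytes Junb in 3 of 8 and Egr1 in 4 of 8. Nr4a1 rests on 4 endothelial control UMIs, and Egr1 kept 0 of 22 after subtraction of free RNA. Junb met the filter of the astrocyte fit in 0 of 8 control sums. The differences of Nr4a1 and Egr1, and that of Junb against astrocytes, are values and are not read as tested. Junb kept 5 of 17 endothelial control UMIs after subtraction. The difference fits were not repeated with free RNA subtracted.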

How the results depend on the processing

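Under alternatives other than leaving out a mouse, counts of members called higher kept within 1.5 times the reported count, except that limma voom gave 3 in endothelial cells, no filter gave 2 in astrocytes and 7 in oligodendrocytes, and subtraction of free RNA gave 0 in oligodendrocytes. The cause was not tested, other than that more members are tested without the filter (10) and fewer after subtraction (2). Without 1 mouse the counts were 8 to 9 over all cells, 5 to 7 in endothelial cells, 1 to 1 in astrocytes, 2 to 3 in oligodendrocytes and 4 to 5 in the neuron gate, and all 10 microglia fold changes stayed above 0 (10 to 10). The share of all genes with a fold change above 0 was not counted in microglia, so nothing is read from this. The share of microglia with an Egr1 UMI was lower in tumors. The members with a larger effect in endothelial cells numbered 0 to 2 against astrocytes, 3 to 6 against the neuron gate and 0 to 2 against oligodendrocytes, fits added after the data were seen. The endothelial count was 5 without tumor 2, 3 or 4, and the count against astrocytes was 0 without control 1, 3 or 4 or tumor 1 and 1 without control 2.

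Signs changed for 6 results, none of which had passed a test (Nr4a1 in microglia was not tested). Nr4a1 over all cells gave 0.00 with 5000 barcodes, -0.01 with DESeq2, -0.67 with limma voom, -0.07 with the mitochondrial limit, -0.10 with the replicate block and -0.82 to 0.34 without 1 mouse. Egr1 in oligodendrocytes gave -0.48 with limma voom, -0.39 with the block and -0.02 to 0.53 without 1 mouse, and Jun in astrocytes -0.02 to 0.74 without 1 mouse, the lowest without tumor 2. Junb in the neuron gate gave -0.02 with voom, -0.13 with the block, -0.17 with the stricter gate and -0.41 to 0.52 without 1 mouse. Dusp1 there gave -0.01 with 5000 barcodes, -0.04 with the mitochondrial limit, -0.09 without a filter, -0.47 with the stricter gate and -0.30 to 0.21 without 1 mouse. Nr4a1 in microglia gave -0.04 with a pseudocount of 1 CPM.

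Replicate numbers did not pair the samples: same-numbered mice correlated at 0.101, 0.010, -0.013 and 0.047. With the replicate block 8 members were called over all cells, 8 in endothelial cells, 1 in astrocytes, 3 in oligodendrocytes and 5 in the neuron gate, and Egr1 in astrocytes was no longer called. Free RNA was not subtracted over all cells and in the neuron gate, and the limit of 50 cells left fewer than 3 mice a group in endothelial cells, astrocytes and oligodendrocytes, as did the mitochondrial limit in endothelial cells. Control endothelial cells (29 to 31 a mouse) limit what can be seen for rare transcripts.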
